A study of Mus musculus with 6 samples.

Results

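The voltage-gated calcium channel alpha-1 subunit genes were examined in the postnatal day 7 (P7) mouse retina, as the 10 *Cacna1* genes among the 21744 genes of the expression table. The family was taken whole, by gene symbol, but it was chosen by a measured value: the high level of *Cacna1i* in the retinas labelled *Lhx4* null was known when the family was taken up. The values of its members in this contrast are therefore given as a description. No p-value is given for a member, and calls are counted only beside those over all genes. The standard errors and intervals of the members come from the limma fit, which draws the variance of each gene toward a trend over all genes. They are given as description and not as a test. RNA-seq was performed on 3 control mice and 3 *Lhx4* null mice, with the retinas of a mouse making 1 library, to find the genes that depend on the LIM-homeodomain factor LHX4 as bipolar cells differentiate. The null genotype of the study is *Lhx4* loxP/tdT; *Six3-Cre*, in which one allele carries a tdTomato knock-in and the other is deleted by a Cre transgene driven by *Six3* in the retina. Mice of both sexes were on a mixed C57BL/6J and 129S6 background. The labels call the other group only control, and its exact genotype in this experiment is not given in the sources used here; in other experiments of the study, controls were wild type or carried a floxed or tdT allele without Cre. The pigment epithelium was removed by dissection.

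The alpha-1 subunit forms the pore and the voltage sensor of a calcium channel. L-type channels open for long periods and drive the continuous transmitter release of photoreceptors and bipolar cells, P/Q-, N- and R-type channels serve fast release at conventional synapses, and T-type channels open near the resting potential and close quickly. L-type and P/Q-, N- and R-type subunits are joined by auxiliary beta and alpha2delta subunits, whereas T-type subunits can work without them.

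*Lhx4* itself was read first, as a check of the labels. It stood at 20.9, 23.8 and 19.1 FPKM (fragments scaled to transcript length and to the depth of the library) in control replicates 1, 2 and 3, and at 31.2, 30.3 and 29.0 FPKM in *Lhx4* null replicates 1, 2 and 3. All 3 null libraries were above all 3 controls, which goes against the label if it is read as less *Lhx4* RNA. The log2 difference of 0.51 (SE 0.091) did not pass the threshold in limma (adjusted p = 0.0978). A gene-level FPKM does not show which exons the fragments came from, so the loss of a deleted part could not be checked. The groups were far apart for the bipolar transcription factor gene *Bhlhe23*, at 10.2, 13.0 and 10.6 FPKM in the control and 0.814, 0.563 and 0.830 FPKM in the null libraries (log2 difference -3.78, limma adjusted p = 0.000171). Directions below are therefore between control libraries and the libraries labelled *Lhx4* null. Across the 6 libraries, markers of retinal cells were present, led by the photoreceptor gene *Sag* (623 to 1008 FPKM) and by *Otx2* (260 to 375 FPKM) of the bipolar list.

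The depth of each library was estimated from the smallest steps of low FPKM values. Each step was taken as 1 fragment over the full annotated transcript length. Of the 290 to 345 low genes used per library, 56 to 79 lay at such a step, so the depths are approximate. Control replicates 1, 2 and 3 held about 33990000, 27400000 and 35560000 fragments, and the null replicates about 16710000, 20480000 and 23510000. Every control library was deeper than every null library (means 32320000 and 20230000 fragments; two-sided p = 0.1 by an exact permutation test, which cannot go lower with 3 against 3). A further difference set control replicate 2 and null replicate 1 apart, 1 library of each group. The summed FPKM of 11 rod genes was highest in control replicate 2 (5431) and null replicate 1 (5063). The summed FPKM of 6 cell cycle genes was lowest in the same 2 libraries (9.10 and 11.1, against 18.0 to 33.4 in the others). Of the rod genes, 10 had a negative log2 difference (median -0.29). All 6 cell cycle genes had a positive one (median 0.57), and 0 genes of either list were without overlap.

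All 10 members averaged 0.1 FPKM or more over the libraries and entered the limma fit of 15200 genes on log2(FPKM + 0.1). Of the 10, 1 was called higher in the null libraries at an adjusted p under 0.05 and 0 were called lower; *Cacna1i* was the one called. Over all genes tested, 13 were called higher (0.0855%) and 21 lower (0.138%). The groups did not overlap, in the higher direction, for 1 member, again *Cacna1i*, and in the lower direction for 0, whereas 8.1% of all genes tested were without overlap in the higher direction and 6.13% in the lower. Since the family was chosen with the value of *Cacna1i* known, nothing is read from these counts. Without any filter on low values, the fit over the whole table called 0 genes in either direction, *Cacna1i* included. In a fit added after the data were seen, which left out only genes at 0 in every library, 6 genes were called higher and 14 lower, with 1 member among them.

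**Figure D1:**
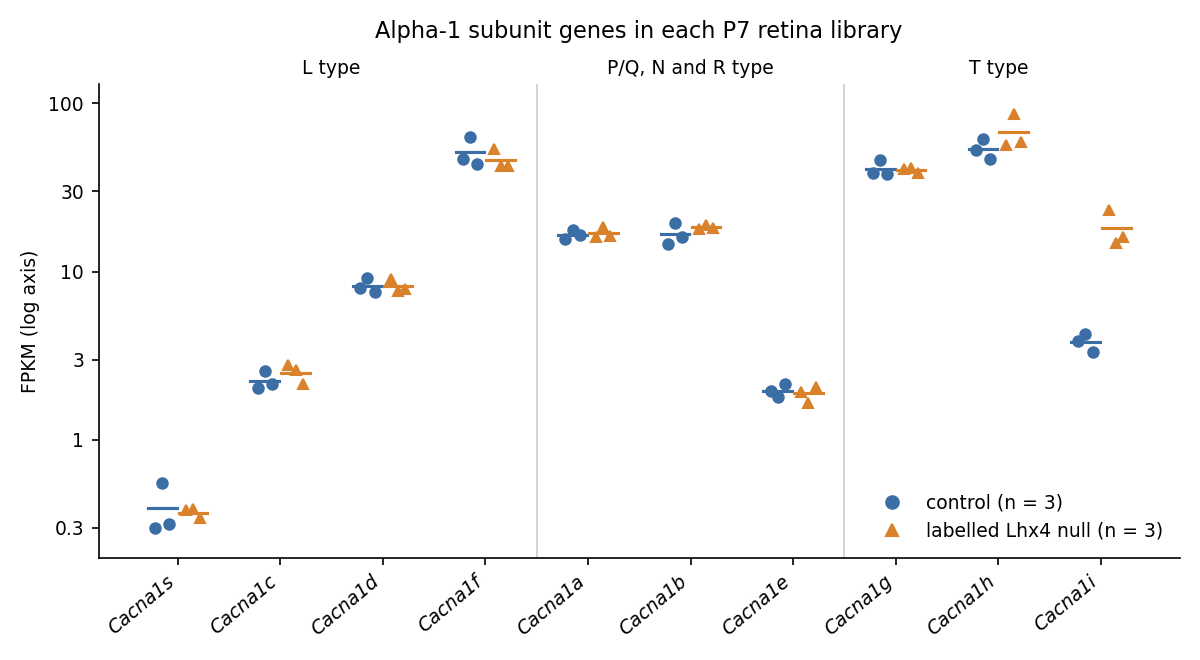
FPKM on a log axis of the 10 alpha-1 subunit genes in each library, by channel class. Circles are the 3 control libraries, triangles the 3 libraries labelled Lhx4 null, and short lines the group means; the groups are apart for Cacna1i and overlap for the other 9 genes.

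Among the T-type genes, *Cacna1i* was far higher in the null libraries, *Cacna1g* was level, and *Cacna1h* was high in 1 null library. *Cacna1i* (ENSMUSG00000022416) encodes the T-type subunit with the slowest kinetics of its class and lies on the plus strand at chr15:80287238-80398279 (GENCODE vM21, GRCm38). It stood at 3.85, 4.27 and 3.32 FPKM in control replicates 1, 2 and 3, and at 23.3, 14.9 and 16.2 FPKM in null replicates 1, 2 and 3. The lowest null library lay above the highest control library, and null replicate 1 was the highest of all. Mean FPKM was 3.81 ± 0.473 (SD, n = 3) in the control and 18.1 ± 4.56 (SD, n = 3) in the null libraries, a ratio of 4.75. On the scale of log2(FPKM + 0.1), on which changes of low genes appear smaller, the difference was 2.20 (SE 0.17, 95% interval 1.80 to 2.60), the third highest rise of the 15200 genes tested. For the longest annotated transcript, these FPKM correspond to about 1281, 1143 and 1156 fragments in the control libraries and to 3814, 2978 and 3715 in the shallower null libraries. In whole retina, a different number of cells that express a gene and a different amount of its RNA per cell cannot be told apart.

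The promoter of *Cacna1i*, as the member on which the results turn, is shown beside that of *Cacna1b*, whose mean FPKM in the null libraries was next to it and whose groups overlapped. Sequences were taken from a table of RefSeq promoters (GRCm38.p6), by which 7 of the 10 members were matched (*Cacna1b*, *Cacna1c*, *Cacna1d*, *Cacna1e*, *Cacna1f*, *Cacna1i* and *Cacna1s*). Both are the 250 bases before the start, 5′ to 3′ on the strand of the gene, with each CG dinucleotide in capitals, at chr15:80286988-80287237 (plus strand) and chr2:24763153-24763402 (minus strand).
Cacna1i: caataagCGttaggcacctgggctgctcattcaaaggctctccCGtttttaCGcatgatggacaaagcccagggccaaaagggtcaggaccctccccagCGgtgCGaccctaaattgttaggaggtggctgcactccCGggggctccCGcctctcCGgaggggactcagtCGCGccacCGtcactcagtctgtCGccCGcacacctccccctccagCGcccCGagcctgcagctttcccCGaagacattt
Cacna1b: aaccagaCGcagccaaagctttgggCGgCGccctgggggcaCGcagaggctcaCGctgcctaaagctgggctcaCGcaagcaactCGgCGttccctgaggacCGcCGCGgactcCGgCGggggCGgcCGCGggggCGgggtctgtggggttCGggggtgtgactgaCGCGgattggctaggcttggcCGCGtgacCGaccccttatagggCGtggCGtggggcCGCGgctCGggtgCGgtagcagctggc
The window of *Cacna1i* held 16 CG dinucleotides at a GC content of 62.4%, and that of *Cacna1b* held 29 at 72.0%. Over all 32851 promoters of the same length the medians were 6 and 52.4%. Both strands were searched for a homeodomain motif (TAATTA, which reads the same on both strands), a related one (TAATTG), the motif of OTX2 and CRX (TAATCC) and an E-box (CATCTG), and neither window held any of them. The shares of all promoters with these motifs were 4.84%, 7.17%, 6.25% and 14.4%, in that order. Among the other members, a promoter of *Cacna1d* held the related homeodomain motif, that of *Cacna1s* held the OTX2 and CRX motif and the E-box, and 2 promoters of *Cacna1c* held the E-box. A match describes these letters only.

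Several marker lists separated the groups as *Cacna1i* did. The 7 fibroblast genes summed to 22.5, 29.5 and 23.1 FPKM in control replicates 1, 2 and 3 and to 66.7, 49.2 and 51.7 FPKM in null replicates 1, 2 and 3, so that null replicate 1 was highest, as for *Cacna1i*. Of the 5 tested, 2 were called higher in limma, the matrix gene *Fbln2* (log2 difference 1.24, adjusted p = 0.00443) and the collagen gene *Col1a2* (1.26, adjusted p = 0.0489), and 0 were called lower. The most abundant, fibronectin (*Fn1*), stood at 16.9, 24.2 and 18.7 against 55.5, 37.8 and 40.7 FPKM. *Fn1* made up most of the sum in every library, and the null libraries had the same order in the sum as for *Fn1*. *Fbln2* stood at 2.65, 2.43 and 2.38 against 6.31, 6.32 and 5.42 FPKM, with null replicates 1 and 2 about level. *Col1a2* stood at 2.00, 2.07 and 1.29 FPKM against 4.12, 4.24 and 4.72 FPKM, highest in null replicate 3. The lowest genes of the list, *Col1a1*, *Dcn* and *Lum*, were near 0 in both groups. *Col1a1* lay between 0.059 and 0.18 FPKM. *Dcn* stood at 0.017, 0.021 and 0.032 FPKM in the control and at 0.139, 0.113 and 0.116 FPKM in the null libraries. *Lum* was listed at 0 in all but null replicate 3 (0.042 FPKM). At these low levels *Dcn*, which was not tested, was higher in every null library, as *Cacna1i* was. *Col3a1*, at 0.507 to 0.734 FPKM, was lower in every null library than in every control library.

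The 21 bipolar genes summed to 999, 1114 and 940 FPKM in the control and to 713, 784 and 786 FPKM in the null libraries. Of the 21, 8 were called lower in limma (*Bhlhe23*, *Lhx3*, *Grik1*, *Fezf2*, *Grm6*, *Pcp2*, *Isl1* and *Scgn*) and 0 higher, with a median log2 difference of -0.70. The most abundant of them, *Otx2*, which photoreceptors also express, overlapped between the groups. The 10 cone genes summed to 515, 368 and 502 FPKM against 582, 616 and 702 FPKM, with the short-wavelength opsin gene *Opn1sw* called higher (1 of 10; log2 difference 0.88, limma adjusted p = 0.0306) and 0 called lower. They did not move as one, with 5 of the 10 higher without overlap (*Opn1sw*, *Gnat2*, *Pde6h*, *Cngb3* and *Rxrg*) and 2 lower. Over all genes tested, the shares were 8.1% and 6.13%. The 2 lower genes were cone arrestin and *Opn1mw*. Cone arrestin (*Arr3*) stood at 28.7, 29.7 and 30.2 against 16.9, 8.53 and 12.7 FPKM (limma adjusted p = 0.0769). *Opn1mw* stood at 1.41, 2.75 and 1.46 against 0.699, 0.351 and 0.367 FPKM (limma adjusted p = 0.0968). Apart from *Opn1sw*, these cone genes were named after their values were seen. The most abundant cone gene, *Gngt2*, overlapped (157 to 296 against 237 to 406 FPKM).

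Müller glia and pigment cell lists separated the groups by their sums, without a gene called in limma. The 10 Müller genes summed to 731, 815 and 736 against 916, 884 and 898 FPKM. A large part of this sum was their most abundant gene *Apoe*, at 272, 301 and 291 against 360, 356 and 388 FPKM. Of the 10, 3 were higher without overlap (*Apoe*, *Vim* and *Dkk3*) and 0 lower, against 8.1% and 6.13% of all genes tested. The other Müller genes, such as *Rlbp1* (110 to 117 against 114 to 123 FPKM), overlapped between the groups. The 9 pigment genes summed to 45.2, 39.4 and 22.1 against 48.0, 63.0 and 84.6 FPKM, with a positive log2 difference for 8 of 9 and a median of 0.70. Of these, 3 were higher without overlap (*Ttr*, the most abundant, *Mlana* and *Pmel*) and 0 lower, against 8.1% and 6.13% of all genes tested. *Rpe65* overlapped at 0.457 to 1.61 FPKM. No gene of these 5 lists was at 0 in every library. The part of these cell types, and of depth, in the difference of *Cacna1i* was not tested.

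By the root mean square difference of the centred log2(FPKM + 0.1) over the 6 libraries, among 12484 genes averaging 1 FPKM or more, the 5 genes nearest to *Cacna1i* were *Gnat3* (0.347), *Kcng4* (0.512), *Fbln2* (0.523), *Col1a2* (0.535) and *Fn1* (0.535). *Gnat3*, a G protein alpha subunit of taste cells and a close relative of the photoreceptor transducins, stood at 1.70, 1.26 and 1.01 FPKM in the control and at 8.51, 3.49 and 7.90 FPKM in the null libraries. *Kcng4*, a modifier subunit of voltage-gated potassium channels, stood at 0.649, 1.26 and 0.478 FPKM against 3.57, 1.49 and 1.74 FPKM. Null replicate 1 was the highest library for both, as for *Cacna1i*, and neither gene overlapped between the groups. With 6 libraries in 2 groups, this measure depends on the size of the group difference, and a gene with a like profile need not share anything else.

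**Figure D2:**
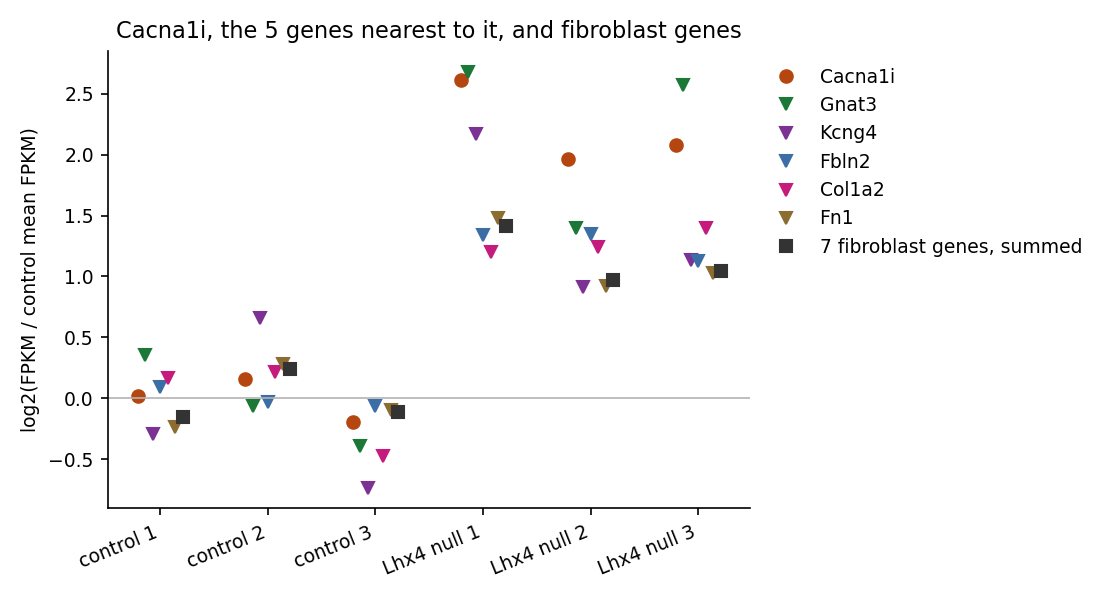
Log2 ratio of FPKM to the control mean in each library for Cacna1i (circles), the 5 genes nearest to it (triangles) and the sum of 7 fibroblast genes (squares). Every gene plotted is higher in the 3 libraries labelled Lhx4 null than in the 3 controls, and Cacna1i and Gnat3 are the furthest from 0 in null replicates 1 and 3.

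*Cacna1h* (ENSMUSG00000024112, chr17:25374285-25433783, minus strand), a T-type subunit known for its block by low nickel, had the highest mean FPKM of the members in both groups. Its control range overlapped that of *Cacna1f*. *Cacna1h* stood at 52.5, 61.3 and 46.7 FPKM in control replicates 1, 2 and 3 and at 56.7, 85.8 and 58.5 FPKM in null replicates 1, 2 and 3. Null replicate 2 stood apart at the top, and the other null libraries lay within the control range. The log2 difference was 0.31 (SE 0.17, 95% interval -0.07 to 0.69), and 0.12 without null replicate 2. The summed cell cycle genes, led by *Top2a*, were also highest in null replicate 2, at 18.0, 9.10 and 19.5 FPKM in the control and 11.1, 33.4 and 27.2 FPKM in the null libraries, with 0 of 6 called in limma and none at 0. Their part in the level of *Cacna1h* was not tested.

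*Cacna1g* (ENSMUSG00000020866, chr11:94408391-94474198, minus strand), a T-type subunit known from rhythmic firing in the thalamus, stood at 38.4, 45.8 and 38.1 FPKM in the control and at 40.9, 41.1 and 38.8 FPKM in the null libraries. The null libraries lay inside the control range, and control replicate 2 was highest. The log2 difference was -0.01 (SE 0.086, 95% interval -0.21 to 0.18). Set against *Cacna1g* in the same library, *Cacna1i* had a ratio of FPKM of 0.0935 ± 0.0066 in the control and 0.449 ± 0.108 in the null libraries (SD, n = 3).

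**Figure D3:**
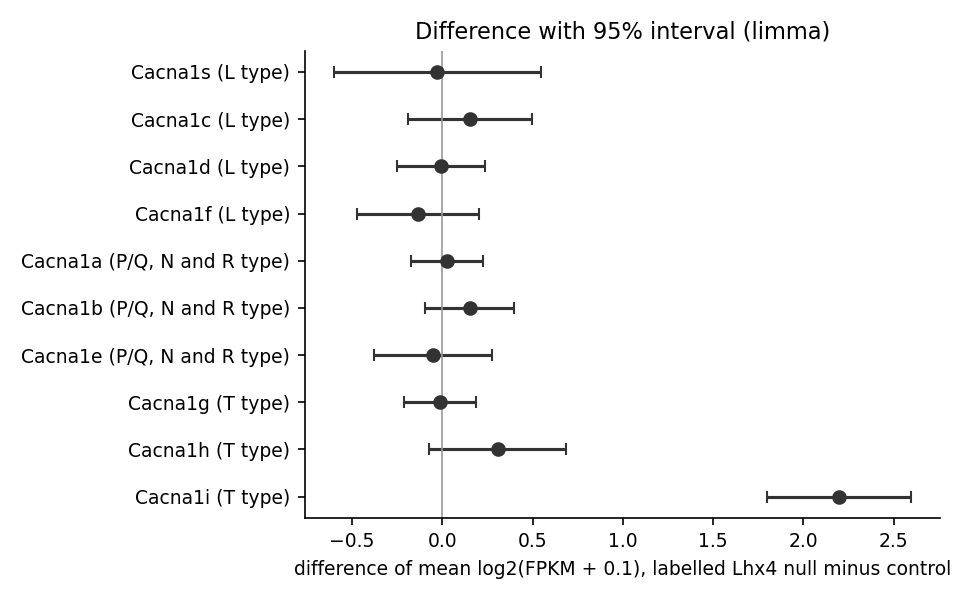
Difference of mean log2(FPKM + 0.1), libraries labelled Lhx4 null minus control, for each of the 10 genes, with its 95% interval from limma (n = 3 per group). The interval of Cacna1i runs from 1.80 to 2.60, and those of the other 9 genes lie between -0.60 and 0.69.

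Among the L-type genes, all 4 members overlapped between the groups. *Cacna1f* (ENSMUSG00000031142, chrX:7607083-7635196, plus strand) encodes the channel of the photoreceptor synapse, whose loss causes a form of stationary night blindness. It stood at 46.9, 62.6 and 43.6 FPKM in control replicates 1, 2 and 3 and at 53.5, 42.4 and 42.6 FPKM in null replicates 1, 2 and 3. Control replicate 2 and null replicate 1 were the 2 highest libraries, and the other 4 lay between 42.4 and 46.9 FPKM. The log2 difference was -0.13 (SE 0.15, 95% interval -0.47 to 0.20), and 0.02 without control replicate 2.

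The 6 libraries had the same order for *Cacna1f* as for the summed 11 rod genes, which stood at 4672, 5431 and 4641 FPKM in the control and at 5063, 3752 and 3999 FPKM in the null libraries. None of these rod genes was called in limma (0 of 11), none was at 0, and the most abundant was *Sag*. Their median log2 difference was -0.29, with 10 of 11 negative and 0 without overlap between the groups. Control replicate 2 was also the highest and null replicate 1 the second highest library for partners of the photoreceptor channel. *Cacnb2*, its beta subunit, stood at 33.3, 44.0 and 36.1 FPKM in the control and at 37.7, 25.0 and 27.4 FPKM in the null libraries, and *Cacna2d4*, its alpha2delta subunit, at 108, 120 and 109 against 112, 103 and 96.8 FPKM. *Cabp4*, a calcium-binding regulator of the channel, was chosen after its values were seen and stood at 15.4, 22.5 and 16.7 against 19.3, 7.63 and 10.2 FPKM. For all 3 partners the groups overlapped. The part of rod content in the level of *Cacna1f* was not tested.

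**Figure D4:**
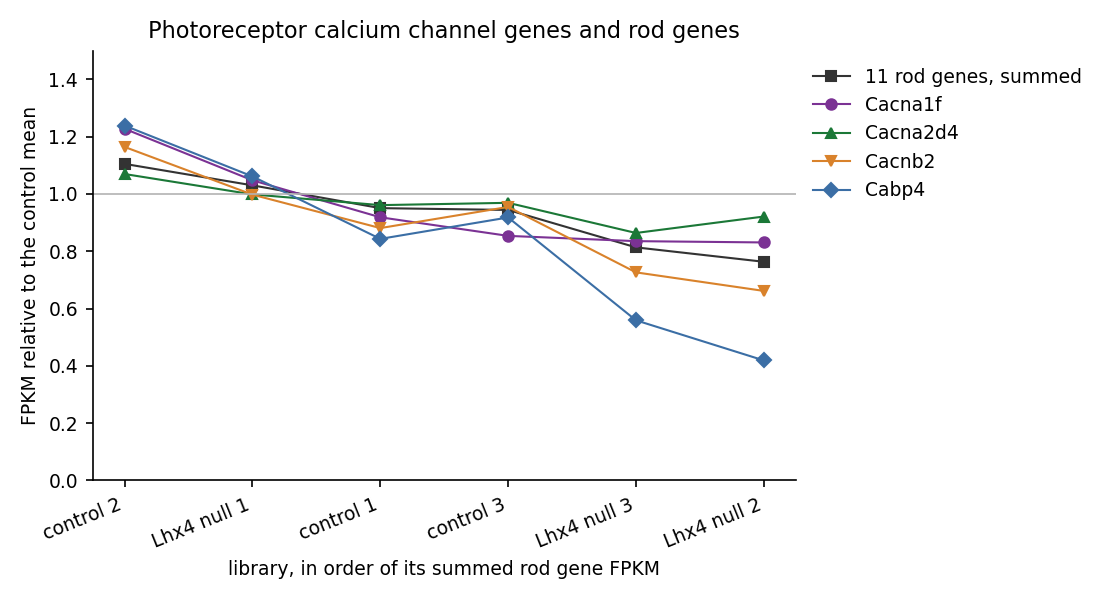
FPKM relative to the control mean of Cacna1f, 3 partners of its channel and the sum of 11 rod genes, with the 6 libraries in order of that sum. Control replicate 2 and null replicate 1 are the highest for every line, and null replicates 2 and 3 are the lowest.

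The other L-type genes were lower in level. *Cacna1d* (ENSMUSG00000015968, chr14:30039939-30491455, minus strand), a channel of neurons, hair cells and sinoatrial cells, stood at 7.95, 9.11 and 7.61 FPKM against 9.02, 7.62 and 7.92 FPKM. *Cacna1c* (ENSMUSG00000051331, chr6:118587240-119196418, minus strand), the main channel of heart and smooth muscle, stood at 2.04, 2.55 and 2.14 FPKM against 2.80, 2.59 and 2.14 FPKM. Null replicates 1 and 2 were the highest for *Cacna1c*, null replicate 3 lay inside the control range, and the log2 difference was 0.15 (SE 0.15), or 0.07 to 0.26 with 1 library left out. For *Cacna1d* the highest libraries were again control replicate 2 and null replicate 1, and the log2 difference was -0.006 (SE 0.11).

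*Cacna1s* (ENSMUSG00000026407, chr1:136052750-136119822, plus strand), the voltage sensor of skeletal muscle contraction, was the lowest member at 0.301, 0.557 and 0.317 FPKM in the control and 0.381, 0.388 and 0.342 FPKM in the null libraries. Control replicate 2 stood above the other 5 libraries. The log2 difference was -0.03 (SE 0.25, 95% interval -0.60 to 0.54), and 0.20 without control replicate 2. Its level rests on about 40 to 95 fragments a library, with a counting error of up to 15.9%, and 20.0% of its exon bases are shared with the antisense gene *Gm37759*. The 11 skeletal muscle genes in the table, led by *Mylpf*, summed to 4.42, 3.54 and 4.21 against 4.35, 5.68 and 4.30 FPKM, lowest in control replicate 2. The 10 lens genes, led by *Cryab*, summed to 14.4, 38.3 and 12.3 against 20.2, 21.0 and 14.6 FPKM, highest in control replicate 2. The part of lens tissue in the level of *Cacna1s* was not tested.

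Among the genes of the conventional synapse, all 3 members overlapped between the groups. *Cacna1a* (ENSMUSG00000034656, chr8:84388440-84640246, plus strand), the P/Q-type channel, stood at 15.6, 17.6 and 16.6 FPKM against 16.0, 18.5 and 16.2 FPKM. *Cacna1b* (ENSMUSG00000004113, chr2:24603887-24763152, minus strand), the N-type channel, stood at 14.5, 19.3 and 16.1 FPKM against 18.0, 19.0 and 18.1 FPKM. *Cacna1e* (ENSMUSG00000004110, chr1:154390731-154884501, minus strand), the R-type channel, stood at 1.95, 1.79 and 2.14 FPKM against 1.93, 1.66 and 2.07 FPKM. Control replicate 2 was the highest library for *Cacna1b*, above all 3 null libraries, while the other controls lay below them. The log2 differences were 0.03 (SE 0.088) for *Cacna1a*, 0.15 (SE 0.11; 0.06 to 0.26 with 1 library left out) for *Cacna1b* and -0.05 (SE 0.14) for *Cacna1e*. The widest of the 3 intervals, that of *Cacna1e*, ran from -0.38 to 0.27.

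In order of mean FPKM, the control libraries had *Cacna1h*, *Cacna1f*, *Cacna1g*, *Cacna1b*, *Cacna1a*, *Cacna1d*, *Cacna1i*, *Cacna1c*, *Cacna1e* and *Cacna1s*. The ranges of the 3 control libraries overlapped for *Cacna1h* and *Cacna1f*, for *Cacna1f* and *Cacna1g*, for *Cacna1b* and *Cacna1a*, and for *Cacna1c* and *Cacna1e*. The ranges alone therefore did not order these neighbours. Within a library, *Cacna1f* was nevertheless above *Cacna1g* in 3 of 3 controls, *Cacna1h* above *Cacna1f* in 2, *Cacna1b* above *Cacna1a* in 1 and *Cacna1c* above *Cacna1e* in 2. In the null libraries the ranges were apart for *Cacna1h* and *Cacna1f*, for *Cacna1f* and *Cacna1g*, and for *Cacna1c* and *Cacna1e*, so *Cacna1f* was above *Cacna1g* in all 6 libraries. In the null libraries *Cacna1i* came between *Cacna1b* and *Cacna1a* and overlapped both, and the other 9 genes kept their order. The mean of *Cacna1i* was above that of 33.8% of the genes tested in the control and of 69.4% in the null libraries.

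Summed over the 10 genes, FPKM was 184, 225 and 177 in the control and 223, 234 and 203 in the null libraries. T-type genes made up 51.5%, 49.5% and 49.9% of this sum in the control and 54.4%, 60.6% and 55.9% in the null libraries, with means of 50.3% ± 1.06 and 57.0% ± 3.25 (SD, n = 3). The groups were apart, but this share includes *Cacna1i*, whose value was known when the family was chosen. Without *Cacna1i*, T-type genes made up 50.5%, 48.5% and 49.0% of the sum in the control and 49.0%, 57.9% and 52.1% in the null libraries, with overlap. L-type genes made up 31.6% ± 1.52 and 26.1% ± 3.43 (SD, n = 3), and P/Q-, N- and R-type genes 18.1% ± 1.38 and 16.9% ± 0.915. The L-type shares were apart too, but without *Cacna1i* in the sum they were 31.7%, 33.9% and 30.9% in the control and 33.0%, 24.2% and 28.4% in the null libraries, with overlap, and the L-type sums in FPKM also overlapped. Within the T-type sum, *Cacna1i* went from 3.89% ± 0.158 in the control to 14.7% ± 4.42 in the null libraries (SD, n = 3). With *Cacna1i* left out, the sum over the other 9 genes was 191 ± 25.6 FPKM in the control and 202 ± 16.4 FPKM in the null libraries, a difference smaller than either SD.

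**Figure D5:**
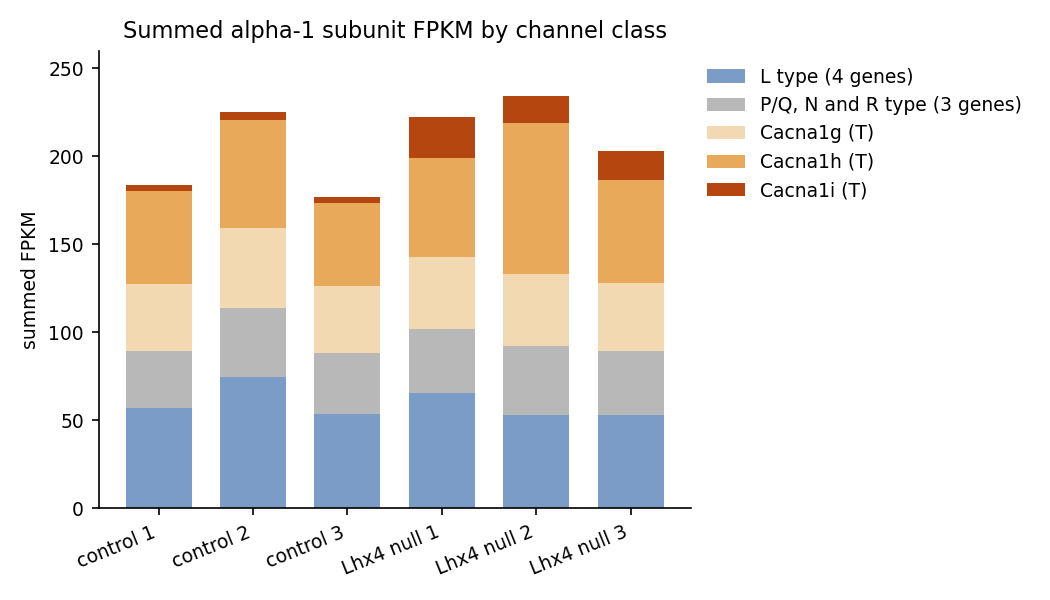
Summed FPKM of the 10 alpha-1 subunit genes in each library, stacked by channel class, with the T-type genes drawn separately. Cacna1i makes up 3.89% of the T-type sum on average in the control libraries and 14.7% in the libraries labelled Lhx4 null.

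Genes that act with these channels were then followed in 9 lists with 91 genes in the table, of which 87 were tested. In limma, 0 of the 87 were called in either direction, and 9 had an unadjusted p under 0.05. The median log2 difference was 0.0104, against 0.011 over all genes tested. The groups did not overlap for 9 of the 87 (10.3%) in the higher direction and for 5 (5.75%) in the lower, near the shares of all genes tested (8.1% and 6.13%).

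The auxiliary subunits comprise 4 alpha2delta, 4 beta and 8 gamma genes, with median log2 differences of -0.06, 0.10 and 0.18. *Cacna2d4* was the most abundant alpha2delta gene, and *Cacna2d1*, with the smallest p of its list, stood at 16.2, 15.7 and 16.9 against 14.6, 13.1 and 15.9 FPKM (limma adjusted p = 0.681). *Cacnb2* was both the most abundant beta gene and the one with the smallest p (log2 difference -0.34, limma adjusted p = 0.640). Of the gamma genes, which mostly act with AMPA receptors, *Cacng7* was the most abundant (43.9 to 53.2 FPKM), and *Cacng3* had the smallest p (log2 difference 0.34, limma adjusted p = 0.514). None of these was called.

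Modulators of the channels had a median log2 difference of 0.006 over 15 genes tested, with *Calm2*, a calmodulin gene, the most abundant at 298 to 362 FPKM. *Stac3*, an adaptor of the muscle channel, had the smallest p of that list (log2 difference 0.33, limma adjusted p = 0.602). Active zone genes had a median of 0.04 over 10 genes. *Ctbp2*, which encodes the ribbon protein RIBEYE, stood at 96.6 to 102 FPKM in the control and 99.0 to 109 FPKM in the null libraries, and the priming factor *Unc13b* at 106, 96.4 and 109 against 82.7, 73.3 and 91.2 FPKM (limma adjusted p = 0.401). For *Unc13b* every null library lay below every control library.

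The calcium release channels held the partner gene nearest to the threshold. *Ryr3*, a ryanodine receptor, stood at 3.89, 6.05 and 5.12 FPKM in the control and at 2.31, 1.88 and 2.35 FPKM in the null libraries. All 3 null libraries were below all 3 controls, with a log2 difference of -1.15 that missed the threshold in limma (adjusted p = 0.0587). It passed only without control replicate 1 (-1.32, adjusted p = 0.0492), among 16 alternatives with adjusted p between 0.0492 and 0.388. *Ryr2*, the most abundant of the 6 release channels, overlapped (4.68 to 5.61 against 3.86 to 5.41 FPKM), and the list median was -0.06.

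Calcium-activated enzymes and channels had a median log2 difference of 0.004 over 18 genes, with the calcineurin gene *Ppp3ca* most abundant at 71.8 to 77.9 FPKM. *Camk4*, a calcium-dependent kinase, stood at 5.85, 5.35 and 5.91 against 3.84, 3.37 and 4.06 FPKM, without overlap (log2 difference -0.59, limma adjusted p = 0.114). Genes of calcium extrusion and storage had a median of 0.01 over 14 genes, led by the pump *Atp2a2* (52.6 to 60.3 FPKM). The exchanger *Slc24a4* had the smallest p there (2.25 to 2.61 against 2.85 to 3.81 FPKM, limma adjusted p = 0.499). The related sodium channels had a median of -0.0005 over 9 genes, led by *Scn8a* (9.97 to 12.7 FPKM), and *Scn1a* had the smallest p of them (limma adjusted p = 0.789).

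Of 15 marker lists, 12 had no gene called in limma, and 19 of their 105 tested genes had an unadjusted p under 0.05. The calls lay in the bipolar (8 of 21), fibroblast (2 of 5) and cone (1 of 10) lists. Among the lists without a call and not described above, the median log2 difference was 0.14 for 16 amacrine genes. They were led by *Pax6* (206 to 208 against 233 to 243 FPKM), and 14 had a positive log2 difference. Of the 16, 5 were higher without overlap and 1 lower, against 8.1% and 6.13% of all genes tested. The median was 0.01 for 12 ganglion cell genes, led by *Sncg*, with 3 higher without overlap and 0 lower. It was 0.13 for 4 horizontal cell genes, led by *Calb1*, and -0.15 for 7 pericyte and smooth muscle genes, led by *Rgs5*, all with overlap. For 8 endothelial genes, led by *Kdr*, it was -0.15, and for 8 microglial genes, led by *C1qb*, 0.26. Each of these last lists had 1 gene higher without overlap and 0 lower. Exon bases were shared with other genes for *Cacna1d* (4.67%, *Chdh*), *Cacna1a* (3.81%, *Gm16183*) and *Cacna1h* (1.62%, *Tpsg1*), all on the opposite strand, and for *Cacna1i* the share was 0%. As the strand setting of the counting is not given in the sources used here, fragments of such pairs could not be separated.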

How the data were processed

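Total RNA of P7 retinas was extracted with RNeasy kits, and TruSeq libraries were sequenced on an Illumina HiSeq X instrument as paired ends. After mapping with Tophat, the authors deposited FPKM per gene from Cufflinks; the submitters' processing notes name GRCm38, TopHat2 and Cufflinks, without versions. The annotation and the strand setting are not given in the sources used here. FPKM divides by transcript length and by library depth, so levels could be compared between genes, and no count model was fitted. Groups and replicate numbers came from the labels, and 0 columns were left unused.

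Null minus control was estimated with limma 3.58.1 under R 4.3.3 (lmFit, eBayes with a mean-variance trend) on log2(FPKM + 0.1) in all 6 libraries, for the 15200 genes averaging 0.1 FPKM or more. P-values are two-sided and were adjusted by Benjamini and Hochberg over all genes tested. Depth was estimated from genes under 0.2 FPKM in every library with a single annotated transcript above 2000 bases. Of 21744 identifiers, 21603 were found in GENCODE vM21. Python 3.11.15, pandas 2.3.3, scipy 1.17.1 and matplotlib 3.10.9 were used.

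The members, the partner lists and the marker lists were chosen with earlier results of these data known. Genes named were the 10 members, *Lhx4*, from each partner list every gene called or else the most abundant gene and the gene with the smallest p, the 5 genes nearest to *Cacna1i*, and the most abundant gene of each marker list. Other genes named, such as *Cabp4*, were picked once their values were known. Alternatives used a pseudocount of 1 or 0.01 FPKM, no filter or one at 1 FPKM, median-of-ratios or quantile scaling, no trend, a block for the replicate number, 5 libraries at a time, and the log2 ratio of group means. A fit without genes at 0 in every library, and a fit without control replicate 2 and null replicate 1, were added after the data were seen.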

Additional observations from a re-analysis of the deposited data

How the results depend on the processing

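The log2 difference of *Cacna1i* lay between 1.97 and 2.33 over 17 alternatives, and that of *Lhx4* between 0.44 and 0.59 over 16, with limma adjusted p between 0.0826 and 0.397. The fit without any filter gave 0 genes called higher, 0 lower and 0 members. Leaving out genes at 0 in every library, an alternative chosen after that result was seen, gave 6 higher, 14 lower and 1 member. Leaving out both control replicate 2 and null replicate 1, chosen after the data were seen because their rod sums were highest, gave 2 higher and 7 lower, with 1 member called and a log2 difference of 2.08 for *Cacna1i*. With 1 library left out, 2 to 12 genes were called higher and 13 to 19 lower, and 0 to 1 partner genes. Against 13 higher and 21 lower, the counts were 3 and 13 without control replicate 1, 7 and 13 without control replicate 2, 3 and 14 without control replicate 3, 3 and 14 without null replicate 2, and 2 and 13 without null replicate 3. The cause was not tested. *Cacna1s* was not tested at a mean of at least 1 FPKM. The replicate block gave 4 higher and 11 lower. Libraries with the same number correlated in their deviations at -0.127, -0.0002 and 0.162, and 1 null library, replicate 3, correlated best with the control of its own number. These values showed no pairing common to the 3 numbers, but so few libraries cannot exclude one. Depth limits *Cacna1s* most.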
